A study of Mus musculus with 52 samples.

Results

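The mitochondrial ribosomal proteins are encoded by nuclear genes, and the 78 genes described here are the protein-coding genes of the deposited tables whose symbol starts with Mrpl or Mrps followed by a number. They are 78 of the 20138 protein-coding genes listed in any tissue, and all of them were listed in every tissue except Mrpl53, which was not listed in fibroblasts. Processed pseudogenes with related names were not counted. By their place in the ribosome 51 members belong to the large subunit and 26 to the small subunit, and Mrps36 is set apart, because its product is known as a part of the alpha-ketoglutarate dehydrogenase complex rather than of the ribosome.

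The RNA was poly(A)-selected from tissues of male mice that were wild type or homozygous for a deletion of the long noncoding RNA gene Tug1 (Tug1-/-, allele Tug1_tm1.1Vlcg), in which a lacZ cassette replaces the gene body and the promoter and first exon stay in place. Eyes, heart, liver and spleen had 3 wild-type and 3 Tug1-/- samples each, prostate had 3 wild-type and 2 Tug1-/- samples, and mouse embryonic fibroblasts (MEFs), cultured cells from male littermate embryos, had 3 and 3. All of these groups are labelled as C57BL/6J/129S6 in background, N3-C57BL/6J and without Neo. Testes had 4 wild-type samples, 4 Tug1-/- samples and 3 rescue samples, the last carrying the deletion together with a Tug1 transgene and CAGs-rtTA3 (Tug1_tm1.1Vlcg; tg(Tug1); CAGs-rtTA3), a doxycycline-dependent activator that switches the transgene on. The rescue transgene expresses a Tug1 isoform that lacks the 5′ region, and the rescue mice were fed doxycycline. Wild-type testes are labelled C57BL/6J/129S6 with C57BL/6J and no Neo, whereas the label of Tug1-/- and rescue testes names Neo and LacZ beside the same strains. LacZ is part of the deletion allele, and by the study's methods the colony was expanded from mice without the neomycin cassette, so whether these testes carried Neo was not settled here. A brain comparison of the same genotypes stands in the deposited table without labelled samples in this series, and the number of brain samples is not given in the labels. The MEFs came from embryos at mid-gestation, and the ages of the mice whose tissues were sequenced are not given in the sources used here.

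Each value below is the authors' mean of a group, in TPM, a unit of transcript abundance that corrects for gene length and library size. Levels can thus be set beside each other between genes. Such an order still depends on the gene length used and on exon bases shared with other genes. The tables hold group means beside the authors' own comparison columns, which were not used here, and hold no values of single samples. No spread between replicates was therefore computed, no difference was tested here, and a ratio between 2 groups describes those means and not a change beyond replicate error. Ratios were computed as log2((TPM + 0.1)/(TPM + 0.1)) for genes with an average of at least 1 TPM over both groups, and a gene is called higher or lower where its ratio reached 1.2-fold. Summed over genes, the authors' mean normalized counts came to between 38666994 and 48341823 in the 6 labelled tissues other than testes and to 17573743 in brain. Among the members the median mean count per gene ran from 409 in brain to 1666 in heart, and no such counts stand beside the testes means. Tug1 itself stood at 10.1 to 57.5 TPM in wild-type tissues and at 0.00832 to 0.885 TPM in Tug1-/- tissues, and at 1.60 TPM in rescue testes. The defining markers of each labelled tissue (such as Prm1 and Tnp1 for testes or Myh6 for heart) summed to more in that tissue than in any other tissue.

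The mitochondrial ribosome translates the few proteins that mitochondrial DNA encodes, all of them subunits of the oxidative phosphorylation complexes. Its RNAs come from mitochondrial DNA, but its proteins are made in the cytosol and imported. Some descend from the proteins of the bacterial ancestor's ribosome and others were added in the course of mitochondrial evolution. By their names 47 members have a bacterial counterpart and 30 are known from mitochondria only. The large subunit holds the peptidyl transferase centre, and the small subunit binds the messenger RNA.

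Promoter windows from RefSeq (build GRCm38.p6, 250 bases before to 50 bases after a gene's start) were matched by symbol for 69 of the 78 members. Letters of 4 motifs known from promoters of genes for mitochondrial proteins were searched on both strands, and matches of NRF1, ETS and YY1 letters overlapped at 0 bases in these windows. The letters GCGCANGCG of NRF1, a factor known to act on nuclear genes of respiration, were in 16 of 69 member windows (23.2%) and in 6.47% of all 27025 windows. The letters CCGGAAG, which ETS factors such as GABPA bind, were in 25 of 69 (36.2%) against 9.12%. The letters AAGATGGC of YY1 were in 12 of 69 (17.4%) against 2.88%. The letters GGGCGG of SP1 were in 34 of 69 (49.3%) against 35.9%. At least 1 of the NRF1, ETS and YY1 motifs was in 43 of 69 windows (62.3%) against 16.5% of all windows. These shares are descriptions, and a match is not evidence that the factor binds there.

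The 5 members above 1 TPM with the widest range of levels between tissues are shown with their promoter windows, because the tissue profiles below turn on them, and Mrpl39 is added as a gene that was highest in testes, chosen after its values were seen. Capitals mark matches of NRF1, ETS or YY1 letters. Mrps6 lies at chr16:92058086-92058385 (plus strand), Mrpl14 at chr17:45686099-45686398 (plus strand), Mrps24 at chr11:5707652-5707951 (minus strand), Mrpl42 at chr10:95501900-95502199 (minus strand), Mrpl49 at chr19:6057706-6058005 (minus strand) and Mrpl39 at chr16:84735195-84735494 (minus strand), each position being that of the window.
Mrps6: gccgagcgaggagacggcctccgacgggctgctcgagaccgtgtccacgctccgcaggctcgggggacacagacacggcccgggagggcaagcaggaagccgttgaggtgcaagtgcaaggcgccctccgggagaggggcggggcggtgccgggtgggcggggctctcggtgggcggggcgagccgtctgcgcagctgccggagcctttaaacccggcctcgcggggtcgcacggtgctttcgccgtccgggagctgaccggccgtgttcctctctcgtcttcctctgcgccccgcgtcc
Mrpl14: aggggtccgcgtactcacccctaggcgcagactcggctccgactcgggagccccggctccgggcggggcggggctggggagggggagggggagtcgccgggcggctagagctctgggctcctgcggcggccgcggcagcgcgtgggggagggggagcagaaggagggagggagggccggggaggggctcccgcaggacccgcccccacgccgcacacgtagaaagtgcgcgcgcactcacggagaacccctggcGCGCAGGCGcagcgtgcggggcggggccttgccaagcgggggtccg
Mrps24: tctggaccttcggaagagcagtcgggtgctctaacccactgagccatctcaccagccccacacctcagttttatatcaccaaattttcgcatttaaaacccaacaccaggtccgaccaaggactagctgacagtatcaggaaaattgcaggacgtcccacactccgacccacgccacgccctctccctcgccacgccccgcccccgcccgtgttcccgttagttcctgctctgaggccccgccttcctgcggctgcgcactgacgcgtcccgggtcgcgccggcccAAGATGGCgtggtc
Mrpl42: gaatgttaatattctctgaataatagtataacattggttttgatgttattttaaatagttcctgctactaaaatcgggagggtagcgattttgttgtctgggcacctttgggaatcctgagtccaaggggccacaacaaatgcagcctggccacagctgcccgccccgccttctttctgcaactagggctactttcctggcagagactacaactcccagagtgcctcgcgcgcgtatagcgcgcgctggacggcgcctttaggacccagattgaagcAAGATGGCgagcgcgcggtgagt
Mrpl49: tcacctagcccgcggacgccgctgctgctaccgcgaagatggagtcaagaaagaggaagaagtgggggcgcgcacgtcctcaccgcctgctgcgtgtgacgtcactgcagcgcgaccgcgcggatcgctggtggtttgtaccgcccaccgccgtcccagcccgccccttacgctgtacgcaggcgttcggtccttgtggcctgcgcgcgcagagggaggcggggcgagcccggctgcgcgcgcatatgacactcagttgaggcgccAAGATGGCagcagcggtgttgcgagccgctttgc
Mrpl39: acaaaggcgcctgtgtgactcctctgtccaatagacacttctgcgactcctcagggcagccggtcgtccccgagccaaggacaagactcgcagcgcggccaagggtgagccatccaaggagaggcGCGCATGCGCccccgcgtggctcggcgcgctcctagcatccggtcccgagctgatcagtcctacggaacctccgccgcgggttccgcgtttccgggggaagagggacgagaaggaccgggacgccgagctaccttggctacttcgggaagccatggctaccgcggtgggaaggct
Mrps24, Mrpl42 and Mrpl49 each hold the YY1 letters after the start, and in these genes the letters include an ATG. Of the 12 YY1 matches among the members, 8 began at or after the start, and all 8 read AAGATGGC on the gene's own strand. Mrpl14 holds NRF1 letters just after its start, Mrpl39 holds a palindromic NRF1 match upstream, and the window of Mrps6 holds none of these 3 motifs. The median level of members with NRF1 letters was 40.4 TPM against 34.6 TPM without them. For ETS letters it was 27.1 TPM against 41.4 TPM, and for YY1 letters 30.3 TPM against 38.8 TPM, as descriptions without a test.

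In wild-type tissues all members but Mrpl53 stood above 1 TPM in every tissue. The median member stood at 22.9 TPM in testes, 23.9 TPM in liver, 32.1 TPM in spleen, 34.1 TPM in eyes, 35.3 TPM in heart, 35.8 TPM in MEFs, 39.2 TPM in brain and 43.2 TPM in prostate. Summed over the members, testes (2392 TPM) and liver (2464 TPM) were the lowest, and spleen (3122 TPM), eyes (3264 TPM), brain (3489 TPM), MEFs (3526 TPM), heart (3634 TPM) and prostate (4397 TPM) followed. The members thus took between 0.239% and 0.440% of all transcripts by this unit. In heart 47.5% of the TPM came from the mitochondrial chromosome, against 1.76% in testes. With only nuclear genes in the total, the sum in heart was 6921 TPM, and heart stood above prostate instead of below it.

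**Figure D1:**
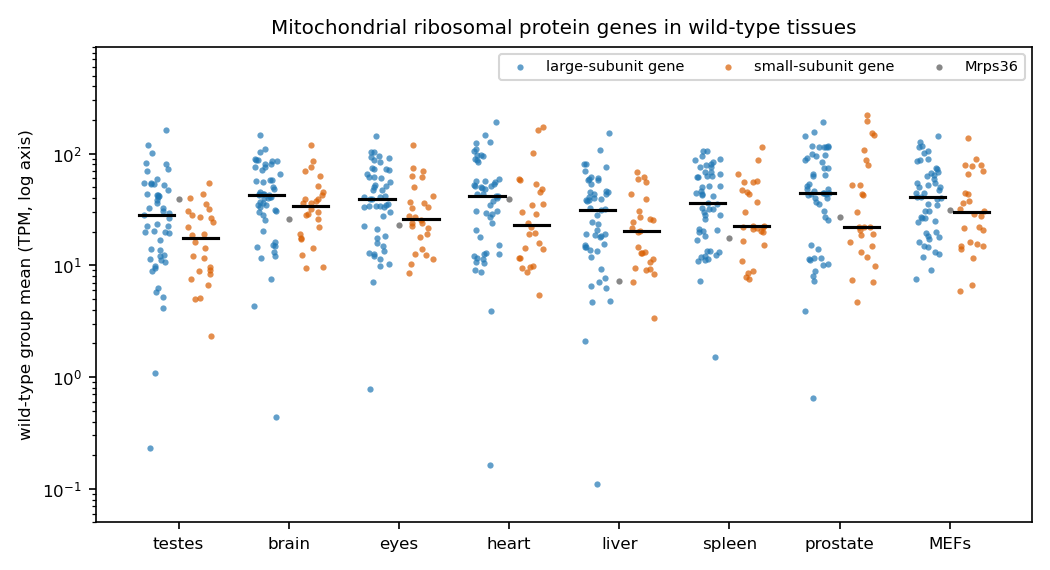
Wild-type group mean of each member (TPM, log axis) in 8 tissues, with large-subunit genes in blue, small-subunit genes in orange and Mrps36 in grey; black bars are medians of each subunit's genes. The large-subunit median lies above the small-subunit median in every tissue, and the lowest points are Mrpl53.

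By their median, large-subunit genes had higher levels than small-subunit genes in every tissue, and by their mean the difference was smaller in 7 tissues and larger in testes. The median over genes of the tissue-median level was 40.8 TPM for the 51 large-subunit genes and 22.6 TPM for the 26 small-subunit genes. Within a tissue, the large-subunit median divided by the small-subunit median ran from 1.26 in brain to 2.03 in prostate. The summed large-subunit level was 2.08 to 2.81 times the summed small-subunit level in 7 tissues and 3.53 times in testes, where the large-subunit genes summed to 1834 TPM and the small-subunit genes to 519 TPM. The Tug1-/- means gave 3.47 times in testes and 2.05 to 2.81 times elsewhere. Equal levels per gene would give 1.92 times in MEFs, where Mrpl53 was not listed, and 1.96 times in the other tissues, from the numbers of genes. The mean per gene of the large subunit was thus 1.23 to 1.43 times that of the small subunit in 6 tissues and 1.80 times in testes, but 1.06 times in prostate, at 57.9 and 54.6 TPM. Members with a bacterial counterpart had a median of 40.8 TPM and members known from mitochondria only one of 33.8 TPM.

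The most abundant members by their median over tissues were Mrps21 (120 TPM, a small-subunit protein), Mrpl12 (96.3 TPM), Mrpl34 (95.4 TPM), Mrpl54 (91.1 TPM) and Mrpl28 (87.9 TPM). Mrpl12, which forms part of the stalk that receives translation factors, ranged from 72.2 TPM in eyes to 191 TPM in heart. Mrps21 ranged from 30.5 TPM in testes to 195 TPM in prostate. Both were thus abundant in every tissue, with a wide range between tissues. The least abundant were Mrps34 (9.07 TPM), Mrps25 (9.06 TPM), Mrps35 (7.52 TPM), Mrpl23 (4.12 TPM) and Mrpl53 (0.441 TPM). Mrpl53 was the 1 member below 1 TPM by its median, and it exceeded 1 TPM in wild-type spleen alone (1.51 TPM). In the GENCODE M21 annotation of the same build, 88.0% of the exon bases of Mrpl53 are shared with another gene. Most of these are shared with Gm42688 on the same strand, so reads there cannot be given to 1 gene by position alone. The shares were 77.8% for Mrps34 and 69.8% for Mrps25, and 0% for Mrps35 and Mrpl23. Annotated exons covered 8631 bases in Mrps35, 6576 in Mrps25, 4883 in Mrpl23, 2064 in Mrps34 and 790 in Mrpl53. For Mrps21, Mrpl12, Mrpl34, Mrpl54 and Mrpl28 they covered 739, 1532, 607, 825 and 1380 bases. The part of shared bases and exon length in this order of levels was not tested.

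Over the 77 members with a median of at least 1 TPM, the highest wild-type tissue stood at a median of 3.31 times the lowest. The range was over 4-fold for 28 of these members and under 2-fold for 6. Counted over all 78 members, testes was the lowest tissue for 37 and liver for 26. Brain was the highest tissue for 20 members, prostate for 17, heart for 13, MEFs for 12, testes for 9, spleen for 5 and eyes for 2, and liver for 0. The Tug1-/- means, which come from other mice, gave the same highest tissue for 65 of 78 members and the same lowest tissue for 69. The order of tissues for a given member could not be tested against the spread between samples. The counts of highest and lowest tissues were not made over all genes, and their scale includes mitochondrial genes. With only nuclear genes in the total, the median member stood at 67.2 TPM in heart and 45.5 TPM in prostate. The place of heart for single members thus depends on the scale, and tissues were not recounted without mitochondrial genes.

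**Figure D2:**
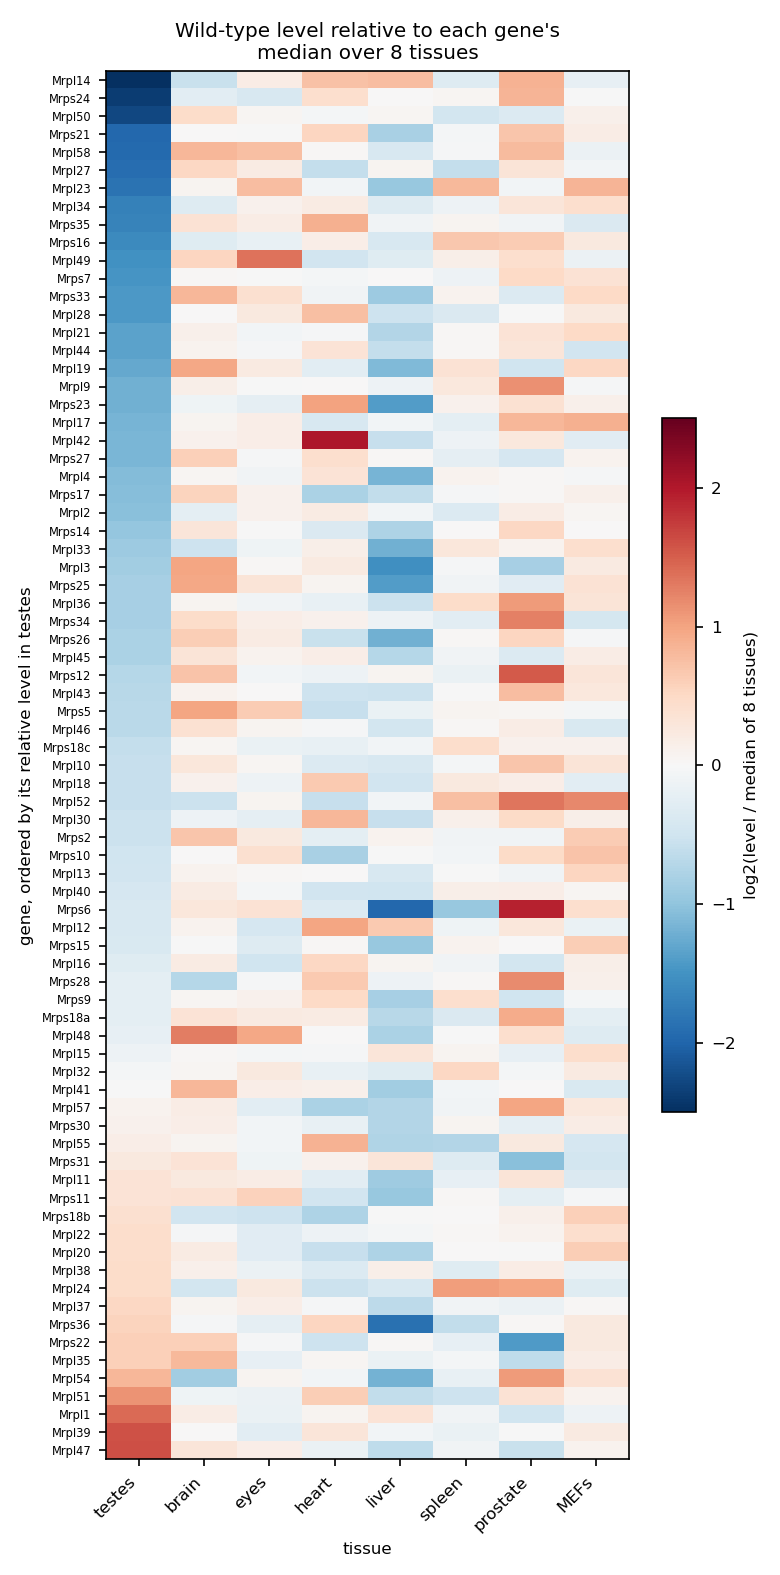
Wild-type level of the 77 members with a median of at least 1 TPM, each row a gene and each column a tissue, as log2 of the level over that gene's median of 8 tissues (blue lower, red higher), ordered by the value in testes. Most genes are below their median in testes, Mrps6 stands out as low in liver and high in prostate, Mrpl42 as high in heart, and Mrpl47, Mrpl39, Mrpl1 and Mrpl51 as high in testes.

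Mrps6, a small-subunit protein with a bacterial counterpart, had the widest range. Its wild-type level was 14.7 TPM in liver, 29.8 TPM in spleen, 43.8 TPM in testes, 45.4 TPM in heart, 70.3 TPM in brain, 73.9 TPM in eyes, 77.1 TPM in MEFs and 221 TPM in prostate. Prostate stood at 14.9 times liver, and the Tug1-/- means gave 13.3 times. Of the exon bases of Mrps6, 19.9% are shared with other genes on its strand, among them Slc5a3, a myo-inositol transporter gene that stood at 1.16 TPM in liver, 1.26 TPM in heart, 15.4 TPM in prostate and 18.4 TPM in brain, its highest tissue.

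Mrpl14, a large-subunit protein next to the subunit interface, was lowest in testes and, with mitochondrial genes in the total, highest in prostate. In the Tug1-/- means it was highest in heart. It stood at 9.51 TPM in testes, 42.9 TPM in brain, 50.5 TPM in spleen, 54.4 TPM in MEFs, 71.7 TPM in eyes, 105 TPM in heart, 108 TPM in liver and 115 TPM in prostate. Liver, which was low for most members, was among the high tissues for Mrpl14. On the same scale Mrps24 had a similar low in testes (8.36 TPM) and high in prostate (79.1 TPM), with 32.8 to 58.3 TPM in the other 6 tissues.

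Mrpl42 was highest in heart at 125 TPM, against 36.8 TPM in prostate, the next tissue, and 13.8 TPM in testes, the lowest. Mrpl49 was highest in eyes at 145 TPM, followed by brain (81.6 TPM) and prostate (74.9 TPM), and lowest in testes at 19.7 TPM. The start of Mrpl49 lies 137 bases from that of Fau, a gene on the other strand whose product is a fusion of a ubiquitin-like protein with the cytosolic ribosomal protein S30. Fau was highest in spleen (2789 TPM) and prostate (2444 TPM) and stood at 592 TPM in eyes, so the tissue order of this pair of genes differed.

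In testes 26 members stood over 2-fold below the median of the other tissues and 4 over 2-fold above it. All of the last 4 are large-subunit genes. Mrpl47 stood at 36.4 TPM in testes against 7.64 to 14.7 TPM elsewhere, Mrpl39 at 120 TPM against 33.1 to 49.1 TPM, Mrpl1 at 38.7 TPM against 10.2 to 18.1 TPM, and Mrpl51 at 80.4 TPM against 24.2 to 56.5 TPM. With mitochondrial genes in the total, testes was above all 7 other tissues for each of these genes. Of the 26 that were low in testes, 17 belong to the large subunit and 9 to the small subunit. Mrpl47 shares 24.2% of its exon bases with Ndufb5 and Actl6a on the other strand, of which Actl6a was also highest in testes, at 67.7 TPM, while Ndufb5 was highest in heart (132 TPM) and stood at 38.7 TPM in testes. In prostate 12 members stood over 2-fold above the median of the other tissues, in liver 13 stood over 2-fold below it, and in brain 5 stood above. The same counts were not made over all genes, so a low level in testes or liver is not read as particular to the members. In these whole tissues, fewer cells of a type and less RNA per cell cannot be told apart.

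**Figure D3:**
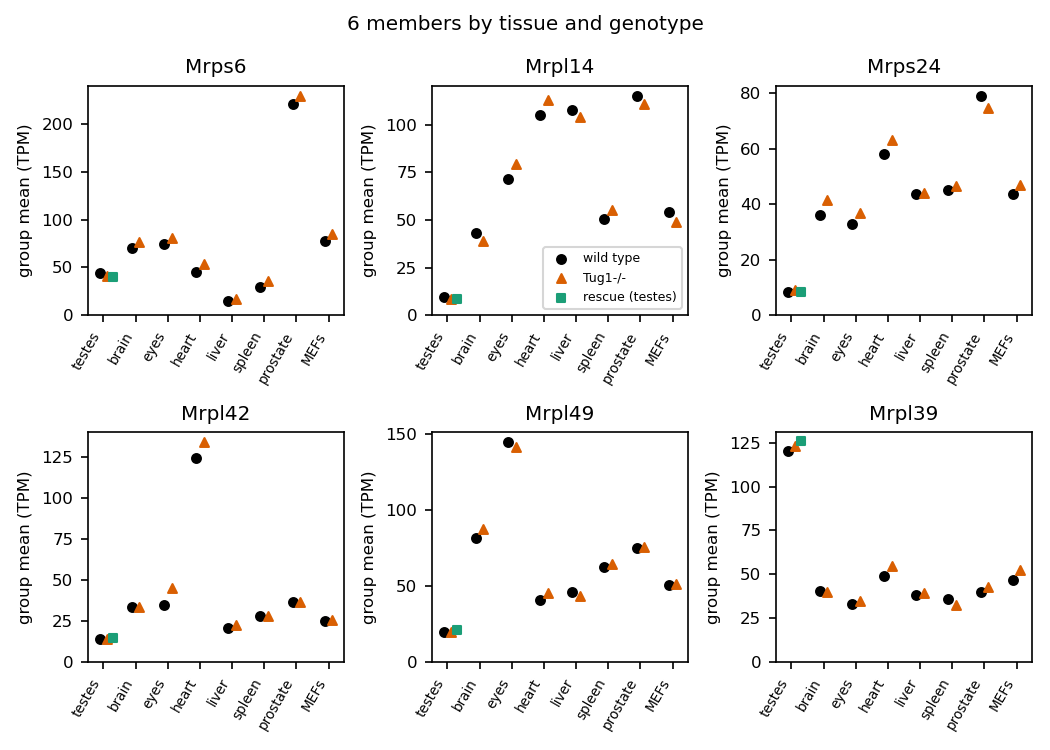
Group means (TPM, linear axes from 0) of Mrps6, Mrpl14, Mrps24, Mrpl42, Mrpl49 and Mrpl39 in 8 tissues, for wild type (black circles), Tug1-/- (orange triangles) and rescue testes (green squares). The points of the genotypes lie close together within a tissue while tissues differ several-fold.

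The flattest members were Mrpl15, with 10.2 TPM in prostate and 16.1 TPM in MEFs, and Mrpl40, with 40.6 TPM in liver and 65.9 TPM in brain. Mrps30, a protein of the large subunit despite its name, was also flat, from 6.25 TPM in liver to 11.8 TPM in MEFs. The Mrps18 family has 3 genes that share descent from bacterial S18. Mrps18a, whose product sits in the large subunit, had a median of 23.6 TPM and was highest in prostate (44.7 TPM). Mrps18b (20.2 TPM) was highest in MEFs (30.7 TPM) and lowest in heart (11.7 TPM), and Mrps18c (40.8 TPM) was highest in spleen (55.3 TPM) and lowest in testes (27.1 TPM). With mitochondrial genes in the total, the highest tissue was thus a different one for each gene of the family, and this was not recounted without them. Mrps36 was lowest in liver (7.20 TPM) and stood at 38.9 TPM in heart and 39.4 TPM in testes.

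The genes of the mitochondrial ribosome are spread over 17 chromosomes, and 20 of 78 (25.6%) have a gene on the other strand that starts within 1 kb upstream, against 11.2% of all 20138 protein-coding genes. Of these neighbours 18 are protein-coding, among them Twnk (the mitochondrial DNA helicase) beside Mrpl43 and Sars2 (the mitochondrial seryl-tRNA synthetase) beside Mrps12. On chromosome 11, which also carries Tug1, lie 11 members. The nearest, Mrps24, starts 2.07 Mb from Tug1 by the deposited coordinates, and 0 members lie within 1 Mb. Exon bases are shared with another gene in 33 members, over 20% of them in 10 and over 50% in Mrpl53, Mrps34 (77.8%, with Mapk8ip3 and Nme3) and Mrps25 (69.8%, with Nr2c2).

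Between genotypes few members reached 1.2-fold. Over 617 pairs of a member and a tissue, 16 reached 1.2-fold between Tug1-/- and wild type, 13 of them higher and 3 lower in Tug1-/-, in 12 different members. Of all genes compared in a tissue, 5.55% to 15.3% were called higher and 5.29% to 23% lower. These shares include many genes near 1 TPM, and most members stood higher. Among pairs of at least 10 TPM on average, 11 of 556 for the members (1.98%) and 11.6% of 66324 for protein-coding genes reached 1.2-fold in either direction. In brain alone these shares were 1.37% and 1.67%. Below, the shares of protein-coding genes of at least 10 TPM are called the shares of abundant genes. Among the members the largest log2 ratio was 0.38. Mrps34 (3 tissues), Mrps2 and Mrps22 were called in more than 1 tissue. Log2 levels in both genotypes had Pearson correlations of 0.995 to 0.998 across the 77 or 78 members of a tissue, as a description across genes, which share libraries.

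**Figure D4:**
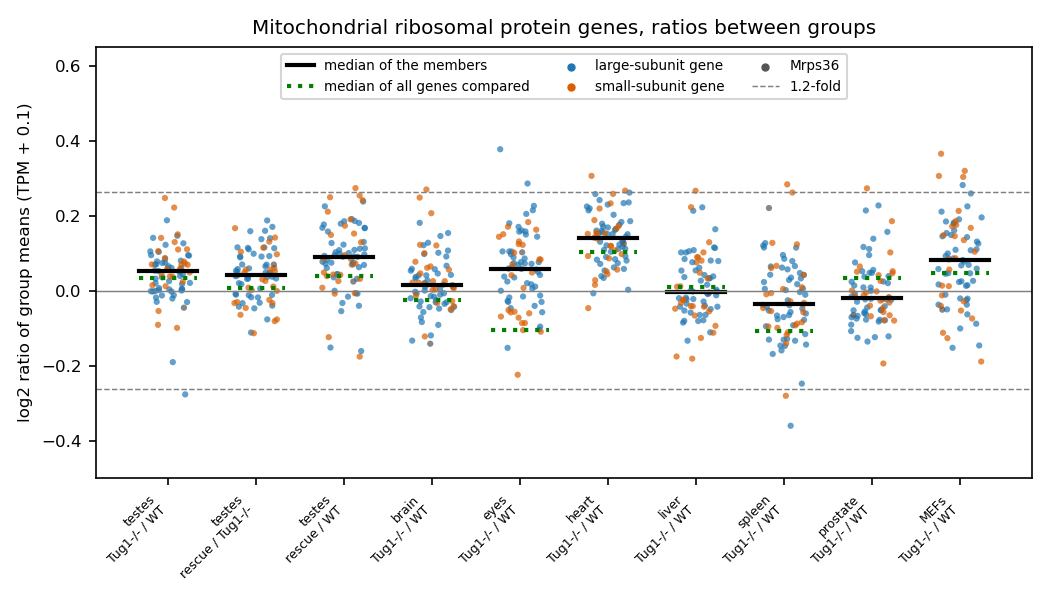
Log2 ratio of group means for each member (blue large subunit, orange small subunit, grey Mrps36) in 10 comparisons, with the median of the members (black), the median of all genes compared (green, dotted) and the 1.2-fold limits (dashed). Nearly all points lie within the limits, and the members' median in heart is 0.14 beside 0.10 for all genes.

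In testes the question was whether the members differed between Tug1-/- and wild type and between rescue and Tug1-/-. Rescue mice carried the transgene and the activator and were fed doxycycline, and the parts of these cannot be told apart here. Of 77 members compared, 0 were called higher and 1 lower in Tug1-/-, while 9.52% and 7.39% of all 21813 genes compared were called higher and lower, and 5.01% and 2.12% of the 8737 abundant genes. The members' median log2 ratio was 0.05 and that of all genes was 0.03. The 1 member was Mrpl37, a large-subunit protein, which stood at 42.7 TPM in wild type, 35.2 TPM in Tug1-/- and 38.1 TPM in rescue testes, a log2 ratio of -0.28 between Tug1-/- and wild type. The largest ratio in the other direction was that of Mrps23, with 35.7, 42.4 and 42.4 TPM in the 3 groups and a log2 ratio of 0.25, below the limit.

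Between rescue and Tug1-/- testes 0 members were called higher and 0 lower, against 5.11% and 8.91% of 21606 genes but 0.411% and 2.4% of 8754 abundant genes, so that 0 higher is near the share of abundant genes. The members' median log2 ratio was 0.04. The widest differences were those of Mrpl54, at 159 TPM in Tug1-/- and 181 TPM in rescue (0.19), and of Mrps24, at 9.01 and 8.32 TPM (-0.11). Between rescue and wild-type testes 1 member was called higher and 0 lower, against 10.6% and 10.6% of 21705 genes and 6.26% and 3.34% of 8733 abundant genes, with a members' median of 0.09 and a median of all genes of 0.04. That member was the small-subunit gene Mrps17, at 9.60 TPM in wild type, 11.2 TPM in Tug1-/- and 11.6 TPM in rescue. In the lower direction Mrps33 stood at 7.48 TPM in wild type, 6.98 TPM in Tug1-/- and 6.61 TPM in rescue. These 3 comparisons share groups, so they are not independent of one another. Markers of Leydig cells, the steroid-producing cells of the testis, summed to 483 TPM in wild type, 742 TPM in Tug1-/- and 639 TPM in rescue, with 5 of 5 markers higher in Tug1-/- than in wild type, and their part in these values was not tested. Skeletal muscle markers, 6 of 6 higher in Tug1-/- than in wild type, summed to 5.43, 45.2 and 4.60 TPM in the same groups. Macrophage markers, 5 of 5 higher in Tug1-/- than in wild type, summed to 68.7, 93.0 and 85.4 TPM. Sertoli cell markers, 4 of 5 higher, summed to 915, 897 and 924 TPM, most of it from Clu, the marker that was lower, and 3 of 5 were past 1.2-fold in Tug1-/- and 4 of 5 in rescue over wild type. Adipocyte markers, 4 of 5 higher, summed to 33.035, 43.0 and 35.7 TPM. The part of these lists was not tested either.

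In heart 75 of 77 members had a ratio above 1, with a median log2 ratio of 0.14. Among all genes compared the median was 0.10 and 75.3% had a ratio above 1, and among protein-coding genes of at least 10 TPM the median was 0.13. Of the members 2 were called higher and 0 lower, against 11.9% and 5.29% of 13701 genes and 10.7% and 1.26% of 6044 abundant genes. Mrps2, a small-subunit protein, stood at 19.6 TPM in wild type against 24.2 TPM in Tug1-/- (log2 ratio 0.31), and Mrps5 at 9.65 and 11.6 TPM (0.27). Mrps22 had the lowest ratio, at 8.72 and 8.44 TPM (-0.05). The share of TPM from the mitochondrial chromosome was 47.5% in wild-type and 43.8% in Tug1-/- hearts. With only nuclear genes in the total, the members' median was 0.04, 55 of 77 members had a ratio above 1 and 0 were called, against 6.74% of nuclear genes called higher and 11.2% lower. Erythroid markers summed to 37591 TPM in wild-type against 30034 TPM in Tug1-/- hearts, lower for 5 of 5 markers. Skeletal muscle markers, 5 of 6 lower, summed to 1302 and 1378 TPM, of which Ckm, also abundant in heart muscle, made up most, while Tnnt3 stood at 31.5 and 0.763 TPM and Mylpf at 20.2 and 1.34 TPM. Adipocyte markers, 5 of 5 lower, summed to 467 and 382 TPM, and those of spleen, 5 of 5 lower, to 27.1 and 14.1 TPM. Macrophage markers, 5 of 5 higher, summed to 521 and 630 TPM. The heart's own markers were 5 of 5 higher, 3 of them past 1.2-fold, and summed to 21925 and 26085 TPM, with a median log2 ratio of 0.32. The part of these lists in the heart values was not tested.

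In eyes the members' median log2 ratio was 0.06 while that of all genes was -0.11, and 53 of 77 members had a ratio above 1 against 27.6% of all genes. Of the members 2 were called higher and 0 lower, against 7.69% and 19.7% of 19203 genes and 5.28% and 9.05% of 10849 abundant genes. Mrpl42 stood at 34.5 TPM in wild type against 44.8 TPM in Tug1-/- (log2 ratio 0.38), and Mrpl12 at 72.2 and 88.1 TPM (0.29). Mrps10 had the lowest ratio, at 12.5 and 10.7 TPM (-0.22). Relative to the median of all genes, 74 of 77 members were above it, 13 were past 1.2-fold higher and 0 lower, against 12% and 10.6% of all genes so centred. Markers of skeletal muscle, 6 of 6 higher, summed to 5774 TPM in wild-type against 10254 TPM in Tug1-/- eyes, and adipocyte markers, 5 of 5 higher, to 179 and 756 TPM. Erythroid markers, 5 of 5 higher, summed to 590 and 1818 TPM, macrophage markers, 5 of 5 higher, to 757 and 973 TPM, and the eye's own markers, 5 of 5 lower, to 38127 and 34279 TPM. The highest wild-type levels of both Mrpl42 and Mrpl12 were in heart, a striated muscle (125 and 191 TPM), and the part of these lists in the eye values was not tested.

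In MEFs 5 members were called higher and 0 lower, against 15.3% and 11.2% of 14450 genes and 10.7% and 5.25% of 8443 abundant genes, and the members' median log2 ratio was 0.08 beside 0.05 for all genes. Mrps34 stood at 6.71 TPM in wild type against 8.67 TPM in Tug1-/- (log2 ratio 0.37), Mrps22 at 14.8 and 18.5 TPM (0.32) and Mrps2 at 35.8 and 44.3 TPM (0.31). Mrps18b (0.30) and the large-subunit gene Mrpl38 (0.28) were the other two. Thus 4 of the 5 are small-subunit genes, and the medians of the subunits were 0.07 for large and 0.10 for small. Mrps14 had the lowest ratio, at 37.3 and 32.7 TPM (-0.19). Mapk8ip3, which shares exon bases with Mrps34, had a log2 ratio of 0.16, and the mean count of Mrps34 in MEFs was 164. Relative to the median of all genes, 2 of the 5 stayed past 1.2-fold, against 11.4% of all genes higher and 13.6% lower so centred. Macrophage markers, 2 of 5 higher, summed to 411 TPM in wild-type against 530 TPM in Tug1-/- MEFs, and their part was not tested.

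In brain 1 member was called higher and 0 lower, against 5.55% and 8.63% of 17244 genes but 0.639% and 1.03% of 10014 abundant genes, so the members' count is near the share of abundant genes. That member was again Mrps34, at 12.5 TPM in wild type against 15.0 TPM in Tug1-/- (log2 ratio 0.27), with a mean count of 122. Mapk8ip3 stood there at 126 TPM in both genotypes, far above Mrps34, and Nme3 at 0.165 and 0.431 TPM, so reads in the shared bases cannot be given to Mrps34 by position alone. Mrps36 had the lowest ratio, at 26.2 and 23.8 TPM (-0.14). The members' median was 0.01 and that of all genes -0.02.

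In liver 1 member was called higher and 0 lower, against 12.2% and 9.54% of 11849 genes and 7.27% and 5.78% of 5504 abundant genes, and the members' median log2 ratio was -0.0022, with 36 of 77 above a ratio of 1. The member was Mrps34 once more, at 8.35 and 10.1 TPM (0.27). In this tissue Mapk8ip3 stood at 2.33 TPM in wild type against 2.37 TPM in Tug1-/-. Mrps34 was not past the limit in the other 5 tissues, where its log2 ratios ran from -0.11 in eyes to 0.08 in testes. Mrps10 had the lowest ratio in liver, at 9.35 and 8.24 TPM (-0.18). Macrophage markers, 5 of 5 higher, summed to 188 TPM in wild-type against 302 TPM in Tug1-/- livers. Fibroblast markers summed to 307 and 304 TPM, most of it from Fn1, the marker that was lower. The other fibroblast markers (Col1a1, Col1a2, Col3a1 and Thy1) had log2 ratios of 0.30 to 0.59. The part of these lists was not tested in liver.

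In spleen 1 member was called higher and 2 lower, against 10.4% and 23% of 16810 genes and 7.27% and 14.2% of 9022 abundant genes, with a members' median of -0.03 and a median of all genes of -0.11. Mrps25 stood at 8.56 TPM in wild type against 10.4 TPM in Tug1-/- (log2 ratio 0.28). Mrps33 stood at 21.6 and 17.7 TPM (-0.28) and Mrpl53 at 1.51 and 1.16 TPM (-0.36), the last with a mean count of 15.6. Nr2c2, which shares exon bases with Mrps25, had a log2 ratio of -0.11. The Tug1-/- spleens held pancreas markers, 5 of 5 higher, that summed to 72.0 TPM in wild type against 7262 TPM in Tug1-/-, and erythroid markers, 5 of 5 higher, that summed to 20069 and 36340 TPM. Markers of B and T cells and leukocytes, 4 of 5 lower and all 4 past 1.2-fold, summed to 2750 and 2118 TPM, fibroblast markers, 5 of 5 lower, to 252 and 209 TPM, and liver markers, 5 of 5 lower, to 22.3 and 0.675 TPM. The part of these in the values of the members was not tested. Relative to the median of all genes, the members' median was 0.07 instead of -0.03, 62 of 78 members were above it, and 3 were past 1.2-fold higher and 0 lower, against 14.9% and 12.6% of all genes so centred.

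In prostate 1 member was called higher and 0 lower, against 14.5% and 7.53% of 15110 genes and 6.67% and 1.53% of 7711 abundant genes, and the members' median log2 ratio was -0.02 beside 0.04 for all genes. Mrps22 stood at 4.68 TPM in wild type against 5.68 TPM in Tug1-/- (0.27), and Mrps10 had the lowest ratio, at 13.3 and 11.6 TPM (-0.19). Seminal vesicle markers, 4 of 5 higher, summed to 22220 TPM in wild-type against 67040 TPM in Tug1-/- prostates, and adipocyte markers, 5 of 5 higher, to 90.9 and 457 TPM. Macrophage markers, 5 of 5 higher and 4 of them past 1.2-fold, summed to 197 and 304 TPM, fibroblast markers, 5 of 5 higher, to 156 and 183 TPM, and erythroid markers, 5 of 5 higher, to 142 and 257 TPM. The part of these lists was not tested.

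Across the 8 tissues Mrpl20, Mrpl50 and Mrps7 had ratios above 1 in every tissue, and 0 members had ratios below 1 in all 8. Mrpl50 had log2 ratios from 0.02 in spleen to 0.21 in prostate, Mrps7 from 0.0033 in brain to 0.18 in eyes, and Mrpl20 from 0.01 to 0.21 in liver. Mrps10, a small-subunit protein, had the lowest ratio of all members in eyes, liver and prostate, without reaching the limit in any of them. None of the 3 genes above 1 in every tissue reached 1.2-fold in any tissue. Relative to the median of all genes in each tissue, 2 members were above it in 8 of 8 tissues, and 6, 7 and 6 were the numbers of tissues for Mrpl20, Mrpl50 and Mrps7. The summed level of the members in Tug1-/- was 0.984 times that in wild type in prostate, 0.987 times in spleen, 1.01 to 1.05 times in liver, testes, brain, MEFs and eyes, and 1.099 times in heart.

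Other genes of mitochondrial translation were set beside the members from lists of known genes. Dap3, Ptcd3, Aurkaip1, Chchd1 and Gadd45gip1 encode mitochondrial ribosomal proteins under other names. Their median log2 ratio followed that of the members within 0.05 in every comparison, from -0.03 in liver to 0.13 in heart, and 1 of 5 was called in 1 tissue, Gadd45gip1 in MEFs (13.9 TPM in wild type against 17.0 TPM in Tug1-/-). Of 25 factors that assemble the ribosome or modify its RNA, 7 were called higher and 0 lower in MEFs, beside 15.3% and 11.2% of all genes there, with a median of 0.18 beside 0.05 for all genes. They included Mrm3, an rRNA methyltransferase (11.2 and 14.6 TPM), the helicase Ddx28 (17.5 and 22.6 TPM) and the GTPase Noa1 (14.1 and 17.5 TPM). In the other tissues 0 to 2 were called higher and 0 or 1 lower, beside 5.55% to 14.5% and 5.29% to 23% of all genes. Of 14 translation factors 1 was called higher in MEFs (Tsfm, the elongation factor Ts, at 19.9 and 24.3 TPM), 1 in liver (Mtrf1l, at 2.45 and 3.49 TPM) and 1 in prostate (Mtrf1l, at 6.90 and 9.08 TPM), beside 15.3%, 12.2% and 14.5% of all genes called higher in those tissues, and 0 were called in the other 5.

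Of the 20 genes for mitochondrial tRNA synthetases and related enzymes, 3 were called higher and 0 lower in heart, 2 and 0 in MEFs and 2 and 0 in testes, beside 11.9%, 15.3% and 9.52% of all genes called higher there. In spleen 1 was called higher and 2 lower, in prostate 1 and 1, in eyes and brain 0 and 1 each, and in liver 0 and 2 of 19. The shares of all genes called lower were 23% in spleen, 7.53% in prostate, 19.7% in eyes, 8.63% in brain and 9.54% in liver, and those called higher were 10.4% in spleen and 14.5% in prostate. Lars2, the leucyl-tRNA synthetase, was the gene called lower in eyes (22.6 and 16.7 TPM), brain (45.1 and 37.4 TPM) and prostate (614 and 18.5 TPM), was called lower in liver (17.7 and 14.0 TPM) and was called higher in testes (50.7 and 61.3 TPM). With Lars2 the list summed to 874 TPM in wild-type against 282 TPM in Tug1-/- prostates. Whether a single sample set the mean of Lars2 in prostate cannot be seen from group means. Of 10 genes for mitochondrial transcription and DNA replication, 5 were called higher in MEFs, among them the RNA polymerase Polrmt (18.2 and 22.9 TPM), the helicase Twnk (20.01 and 24.5 TPM) and the DNA polymerase Polg (17.1 and 21.4 TPM), and 0 lower, beside 15.3% of all genes called higher. Polrmt was the 1 called in heart (12.2 and 15.4 TPM). Called lower were 2 of 9 in liver and 1 of 10 each in eyes, spleen and prostate, against 9.54%, 19.7%, 23% and 7.53% of all genes, and 0 were called in testes and brain. Of 11 genes for import, chaperones and the outer membrane, Hspd1 and Hspa9 were called higher in MEFs, beside the same 15.3%, and Hspd1 in spleen (174 and 255 TPM), beside 10.4%. The median of this list lay between 0.01 and 0.19 in the 8 tissues.

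**Figure D5:**
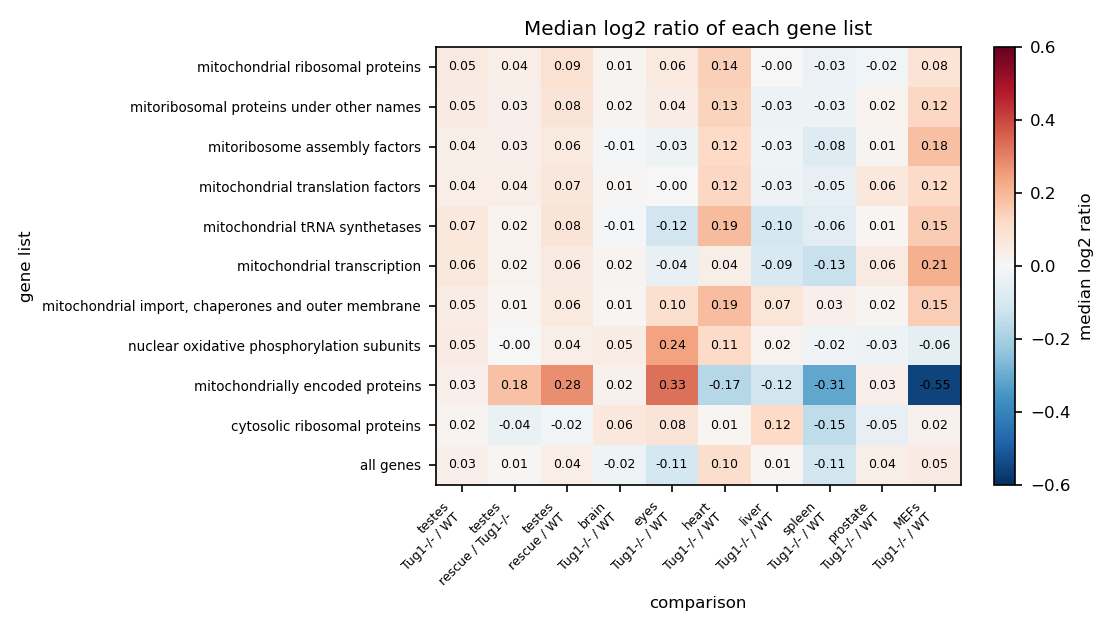
Median log2 ratio of each gene list (rows) in 10 comparisons (columns), written in each cell and coloured blue for lower and red for higher. Mitochondrial ribosomal proteins stay between -0.03 and 0.14, while mitochondrially encoded proteins run from -0.55 in MEFs to 0.33 in eyes.

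The proteins that the mitochondrial ribosome makes are encoded on the mitochondrial chromosome, and the medians of their log2 ratios lay further from 0 than those of the members in MEFs, spleen, eyes and, by less, heart and liver. Their summed level was 46057 TPM in wild-type against 32021 TPM in Tug1-/- MEFs, with 0 of 13 genes compared above a ratio of 1, 12 called lower, beside 11.2% of all genes, and a median log2 ratio of -0.55. In spleen the sums were 51221 and 42093 TPM (median -0.31), and in eyes they were 88781 and 111018 TPM (median 0.33, 8 of 8 genes compared above 1). In testes the sums were 16535 TPM in wild type, 17572 TPM in Tug1-/- and 19815 TPM in rescue. The members' medians in MEFs, spleen and eyes were 0.08, -0.03 and 0.06. In heart the median of the encoded genes was -0.17, with 0 called higher and 5 of 13 lower, beside 0.14 for the members, and in liver it was -0.12 beside -0.0022. Of all genes in heart, 11.9% were called higher and 5.29% lower. In rescue testes the median was 0.18 over Tug1-/-, with 3 of 8 called higher and 0 lower, and 0.28 over wild type, with 8 of 8 above 1 and 4 called higher, beside 0.04 and 0.09 for the members. Of all genes, 5.11% were called higher and 8.91% lower over Tug1-/-, and 10.6% higher over wild type. The parts of the transgene, the activator and doxycycline in the rescue values cannot be told apart. Between Tug1-/- and wild type in testes, prostate and brain both medians were near 0, at 0.03, 0.03 and 0.02 for the encoded genes beside 0.05, -0.02 and 0.01 for the members. Several of the mitochondrially encoded genes were listed near 0 in tissues where others were abundant, so the sums cover the genes with values.

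The nuclear subunits of oxidative phosphorylation, which join the mitochondrially encoded ones in the same complexes, numbered 77 to 80 genes compared per tissue. In eyes 23 of 80 were called higher and 0 lower, beside 7.69% and 19.7% of all genes, with a median of 0.24, above the 0.06 of the members. In the other tissues their medians ran from -0.06 in MEFs to 0.11 in heart. In wild-type heart these genes summed to 54728 TPM, 15.1 times the members, and to 4.09 to 7.20 times the members in the other tissues. The cytosolic ribosomal proteins summed to 5.27 times the members in heart and 36.3 times in spleen. Their median log2 ratio was 0.12 in liver, with 79 of 79 genes compared above a ratio of 1, and -0.15 in spleen, with 6 of 80 above 1, beside -0.0022 and -0.03 for the members.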

How the data were processed

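RNA-seq libraries were made by the authors from poly(A) RNA with the TruSeq RNA Sample Preparation Kit v2. Per the labels and the study's methods, reads were processed with CASAVA 1.8.2, aligned with STAR to mouse build mm10 (GRCm38, GENCODE vM16 annotation), and uniquely mapped reads were counted per gene with featureCounts. The strand setting and the versions of STAR, featureCounts and DESeq2 are not given in the sources used here. The deposited values are the authors' group means of TPM, stacked by tissue outside testes, and a normalized count signal from DESeq2, averaged over both genotypes by the authors. The columns of the authors' own comparisons (fold changes, standard errors, p-values and significance marks) were not used. Allele-specific samples of F1 testes (3 and 3) were not analysed here.

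From the deposited TPM means, log2 ratios were computed with a pseudocount of 0.1 TPM for genes whose average over both groups was at least 1 TPM, with calls at 1.2-fold. From the means no test, error or interval was computed, and precision is described by mean counts. Sums of TPM are over the genes listed. Shared exon bases come from GENCODE M21. The ratio and call steps were checked on simulated data. Python 3.11.15 was used with numpy 2.4.6, pandas 2.3.3 and matplotlib 3.10.9.

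Named genes follow a rule: the 5 highest and 5 lowest members by level, the 6 with the widest tissue range, up to 3 members in each direction per comparison, members on the same side in every tissue, the Mrps18 family, Mrps30 and Mrps36. Outside it, Mrpl1, Mrpl39, Mrpl47 and Mrpl51 (high in testes), Mrpl15 and Mrpl40 (flattest) and Mrpl38 (a further call in MEFs) were named after their values were seen. Members and lists were chosen with earlier results of these data known. Ict1, on the list of ribosomal proteins under other names, is the member Mrpl58 and was counted as a member only. Alternatives were another pseudocount, minimum, fold limit and scaling, and leaving out brain.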

Additional observations from a re-analysis of the deposited data

How the results depend on the processing

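No paired analysis was possible because single samples have no values of their own in these tables, and for the same reason no replicate could be left out. The median log2 ratio over members moved by over 0.1 when it was centred on the median of all genes, to 0.16 in eyes, 0.038 in heart and 0.073 in spleen, whose medians of all genes were -0.11, 0.10 and -0.11. Counts of members past the limit were small and moved by over 1.5 times as follows. Centred, they were 13 in eyes, 2 in MEFs, 2 in brain, and 0 in heart, liver, prostate and rescue over wild-type testes. With nuclear genes only they were 4 in eyes and 0 in heart and liver, and the wild-type sums were 4130 TPM in brain, 3606 TPM in eyes, 6921 TPM in heart and 2797 TPM in liver. A limit of 1.5-fold left 0 members in every comparison. A limit of 1.1-fold gave 9 in testes (Tug1-/- over wild type), 8 (rescue over Tug1-/-) and 24 (rescue over wild type), 19 in eyes, 40 in heart, 7 in liver, 12 in spleen, 7 in prostate, 28 in MEFs and 7 in brain. Shares of all genes at 1.1-fold are not given here, so these counts are not read as results about the members. In heart the upper quartile of the log2 ratio was 0.19 for all genes and 0.20 for abundant genes. A pseudocount of 1 TPM gave 1 in heart, 1 in spleen, and 0 in liver, prostate, brain and rescue over wild-type testes. With no minimum, which lets Mrpl53 in, there were 2 in testes (Tug1-/- over wild type), 1 and 2 in the rescue comparisons (over Tug1-/- and over wild type), 2 in liver and 2 in brain. A minimum of 10 TPM gave 0 in liver and prostate and 1 in spleen. The other 101 recomputed summary values stayed within 0.1 (log2) or 1.5 times. Of the recomputed log2 ratios of single named members, 131 stayed within 0.1 and 10 moved further. Without brain, 4 members had ratios above 1 in every tissue, instead of 3.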
